A study of Mus musculus with 66 samples.

Results

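The cytosolic aminoacyl-tRNA synthetases, the enzymes that make serine, one-carbon units, proline and cysteine, and the amino acid transporters of the plasma membrane were followed in C2C12 cells, a mouse myoblast line that stops dividing and forms muscle fibres when serum is withdrawn. The group was a fixed list of 38 genes among the 22489 genes of the expression table, made up of 20 synthetases, 10 synthesis enzymes and 8 transporters. The rule that picks their rows uses names only, but the list was drawn up with earlier results of these data known. Expression was measured by mRNA-Seq in 20 of the series' 66 samples. Untagged wild-type cells (WT) and 9 lines that stably expressed an H3 histone with an N-terminal GFP tag (H3mm16, H3mm13, H3mm12, H3mm11, H3mm7, H3t and the common forms H3.1, H3.2 and H3.3) were each sequenced in the growth state, in medium with 20% fetal bovine serum, and in the differentiated state, 48 h after confluent cells were moved to 2% horse serum. Each line and state had 1 library, so the lines stood in for replicates, and p-values measured the spread between lines that also differed in the H3 they expressed. The transgenes were driven by a doxycycline-inducible promoter and added to the cells' own H3, and each line was selected with doxycycline and G418 and sorted for GFP. By protein sequence the study placed every H3mm variant with H3.3, called H3.3-type here, and put H3t with H3.1 and H3.2, called H3.1/H3.2-type. The libraries named H3mmT in the table were taken as H3t.

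An aminoacyl-tRNA synthetase joins one amino acid to its tRNA, and the charged tRNA then carries it to the ribosome. When charged tRNA runs short or proteins misfold in the endoplasmic reticulum, kinases that phosphorylate the initiation factor eIF2 lower general translation while translation of the transcription factor ATF4 increases. ATF4 binds C/EBP-ATF response elements and is known to raise the transcription of many synthetase, amino acid synthesis and amino acid transporter genes. In myoblasts leaving the cell cycle, the demand for nucleotides falls while contractile proteins are made in bulk, and amino acid supply serves both.

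The core of the C/EBP-ATF response element, TGATGNAA, was searched on both strands (TTNCATCA on the other) in RefSeq promoter windows of 300 bases (GRCm38.p6), which run from 250 bases before a gene's start to 50 after. A window was given for 26 of the 38 genes, and none was given for Cars, Hars, Lars, Mars, Nars, Rars, Vars, Wars, Aldh1l2, Cth, Slc7a5 and Slc1a5. The letters occurred in the windows of 8 of the 26 genes (30.8%), namely Aars, Gars, Iars, Tars, Yars, Pycr1, Slc7a11 and Slc1a4, against 1219 of all 27025 genes with a window (4.51%). No match was found in the 14 windows of mitochondrial synthetase genes, while a list of 17 ATF4 pathway genes had matches in 5 of 16 windows. The stretches printed here show the letters, in capitals, with 10 bases on each side, in genes whose levels are described below. Gars, Iars, Yars and Pycr1 passed the test for a higher level in differentiated cells (adjusted p below 0.05, referred to as called), and Slc7a11 held the letters in both orientations. Each stretch is written 5′ to 3′ on the gene's strand, and its mm9 position comes from an exact match of the window to that build.
Gars, chr6:54987955-54987982, plus strand: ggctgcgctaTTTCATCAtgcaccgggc
Iars, chr13:49777496-49777523, plus strand: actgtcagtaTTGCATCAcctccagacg
Yars, chr4:128867140-128867167, plus strand: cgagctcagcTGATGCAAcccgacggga
Pycr1, chr11:120505148-120505175, minus strand: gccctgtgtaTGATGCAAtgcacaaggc
Slc7a11, chr3:50247565-50247611, minus strand: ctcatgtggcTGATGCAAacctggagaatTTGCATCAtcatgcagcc
The letters began 30 bases before the start in Gars and 103 before it in Pycr1, and just after it in Yars (base 4) and Iars (base 8). Among the genes with a window, 4 of the 12 called higher on differentiation held the letters, as did 4 of the 11 that were tested and not called and 0 of the 2 called lower. A match describes letters in a window and shows no binding.

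Levels are FPKM, the number of sequenced fragments scaled by exon length and by the mapped reads of the library, as the authors' software gave them. Read totals per library are not in the table, so the depth behind each value is unknown. Between 13858 and 16865 genes had a value above 0 in a library. As a check of the cells, 7 of 8 muscle genes rose and 6 of 6 cell cycle genes fell on differentiation, and of 14 markers of other cell types 13 stayed under 1 FPKM in every growth library and 12 in every differentiated library. Myod1, the muscle gene not called, was lower after differentiation in H3.3, H3mm7 and H3mm11 (−0.833, −2.003 and −0.12 on the log2 scale). It was higher in the other lines. The exceptions among the other markers were Cdh5 and Bglap. Cdh5 reached 7.53 FPKM in growth and 1.90 FPKM after differentiation, both in H3mm11. Bglap was at 1.78 and 2.37 FPKM in differentiated H3.3 and H3mm11. The WT libraries stood apart from the 9 GFP-H3 lines for many genes. In growth, 22.5% of all tested genes lay below and 25.9% above the range of the 9 lines. Calls that changed without WT are therefore named, and Phgdh and Slc7a11 are also given without WT. For 9 of the 38 genes, an exon lies over an exon of another annotated gene, and whether counting used strand is not given in the sources used here.

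In growing cells, most of the genes were expressed at similar levels in all lines, with Phgdh and Slc7a11 in WT as exceptions. Median growth levels ran from 1.52 FPKM for Pycr1, which makes proline in mitochondria, and 1.58 FPKM for Slc7a11, the cystine transporter, to 156 FPKM for Phgdh, the first enzyme of serine synthesis. Synthetases lay between 29.9 FPKM (Cars, for cysteine) and 148 FPKM (Nars, for asparagine). Cbs, the first enzyme of the transsulfuration route to cysteine, reached at most 0.139 FPKM in any library and was the only gene of the 38 that failed the filter of a mean of 1 FPKM, whereas Cth, the next enzyme of that route, was expressed in every library.

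On differentiation, 17 of the 37 tested genes were higher and 4 were lower, at an adjusted p below 0.05 in limma across all genes on log2(FPKM + 1), a scale that understates changes of low genes. The 17, which became 11 when the H3.3 line was left out, were 8 synthetases, 5 synthesis enzymes and 4 transporters, and the 4 lower ones were all synthetases. Over all 10954 tested genes, 30.5% were called higher and 28.1% lower. The genes of the list were thus called higher more often (45.9%) and lower less often (10.8%) than the background, as a description. The excess of higher calls was not kept without the H3.3 line. There, 11 of 37 genes and 3179 of all 10954 tested genes were called higher, about the same share. It also shrank without H3.2, H3mm7 or H3mm11, each left out alone, with 12 of 37 genes called higher each time. In the same order, 3143, 3353 and 3194 of all tested genes were called higher. Without H3mm13 or H3mm16 there were 13 higher calls (3109 and 3090 of all tested genes). Without WT, H3.1, H3t or H3mm12 there were 17 to 20, beside 3155 to 3514 of all tested genes. In the main fit, the median difference of the 37 genes was 0.385 on the log2 scale, against 0.038 for all tested genes. The median was 0.319 over the synthetases, 0.644 over the synthesis enzymes and 0.633 over the transporters.

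**Figure D1:**
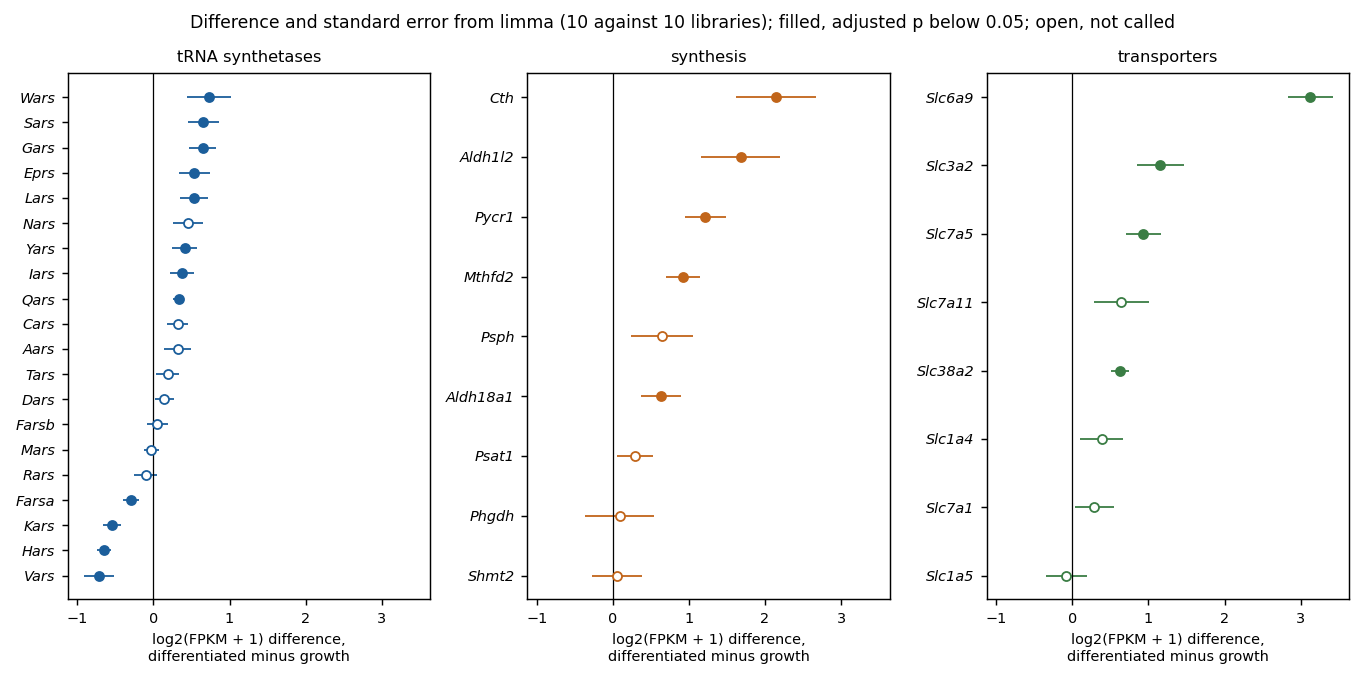
Difference between differentiated and growth libraries on the log2(FPKM + 1) scale (horizontal axis) for the members by role, with bars for the standard error from limma over 10 against 10 libraries. Filled points passed an adjusted p of 0.05 and open points did not: Slc6a9 lies farthest to the right at 3.13, and Vars farthest to the left at −0.71.

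The genes were split in how evenly the lines took part. Qars, Pycr1, Slc38a2 and Slc6a9 were higher after differentiation in 10 of 10 lines and Hars and Vars lower in 10 of 10 lines, while 22.7% of all tested genes were higher and 21.3% lower in every line. Leaving out 1 line at a time, 11 of the 17 higher calls were kept in each of the 10 fits (Gars, Qars, Sars, Mthfd2, Aldh1l2, Pycr1, Cth, Slc7a5, Slc3a2, Slc38a2 and Slc6a9), as were 3 of the 4 lower calls (Hars, Kars and Vars). Without WT there were 17 higher calls again, with Nars gained and Iars lost. Since the 2 libraries of a line come from the same cells, a fit with the line as replicate block was also made: it called 20 higher and 4 lower, adding Aars (adjusted p = 0.0411), Cars (0.0271) and Nars (0.0275), all from limma. Calls over all tested genes increased too, to 4058 higher and 3644 lower, from 3336 and 3082 in the main fit.

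Among the synthetases, Wars, Sars, Gars, Eprs, Lars, Yars, Iars and Qars rose, and Vars, Hars, Kars and Farsa fell. Wars, which charges tryptophan, ranged from 39.3 to 55.0 FPKM in growth, with a median of 47.6, and from 34.5 to 225 FPKM after differentiation, with a median of 53.9. The groups overlapped, because H3.3, H3mm7, H3mm11 and H3.2 reached 114 to 225 FPKM while the remaining lines stayed at 34.5 to 54.2 FPKM. Its log2 difference was 0.73 ± 0.29 (SE; adjusted p = 0.0336), and the call was lost without H3.2, H3.3, H3mm7 or H3mm11, each left out alone.

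Sars, the serine enzyme, lay between 77.3 and 92.6 FPKM in growth (median 88.1) and between 66.4 and 266 FPKM after differentiation (median 131). It was higher in 8 of 10 lines, by 0.66 ± 0.20 (adjusted p = 0.00835), and lower in H3.1 and H3mm12. Without H3.3, H3mm7 and H3mm11 the difference was 0.31 and no longer called (adjusted p = 0.130). Gars, the glycine enzyme, was the most abundant of the risers, with 126 to 178 FPKM in growth and 131 to 369 FPKM after differentiation. It rose by 0.65 ± 0.18 (adjusted p = 0.00351). Qars, the glutamine enzyme, changed less but in 10 of 10 lines, from 32.4–39.8 to 35.5–56.5 FPKM, a rise of 0.33 ± 0.08 (adjusted p = 0.00100).

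The synthetases that fell did so across lines of both types. Hars, which charges histidine, ranged from 71.6 to 93.6 FPKM in growth (median 85.8) and from 40.7 to 63.4 FPKM after differentiation (median 53.3). Every differentiated library lay below every growth library, as for 8.74% of all tested genes. Hars fell by 0.65 ± 0.09 (adjusted p = 1.96e-06). Hars exons overlap in position with those of Hars2, the mitochondrial histidine enzyme on the opposite strand, which was at 0.09 ± 0.13 and not called (adjusted p = 0.597).

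Vars, for valine, went from 56.2–98.7 FPKM (median 70.6) to 26.9–85.3 FPKM (median 39.1), and fell by 0.71 ± 0.19 (adjusted p = 0.00330). It was lower after differentiation in every line, but by 0.20 or less on the log2 scale in H3.3, H3mm7 and H3mm11 and by 0.61 to 1.35 in the other 7 lines. Kars, the lysine enzyme, fell by 0.54 ± 0.12 in 9 of 10 lines (adjusted p = 0.000511). Farsa and Farsb are the subunits of phenylalanyl-tRNA synthetase, which needs both. Farsa fell by 0.29 ± 0.11 (adjusted p = 0.0237), while Farsb was at 0.05 ± 0.14, with 5 lines in each direction (adjusted p = 0.783). Mars, the methionine enzyme, had the smallest difference, −0.03 ± 0.10 (adjusted p = 0.829), and its exons overlap in position with those of Ddit3 on the opposite strand.

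Of the 20 synthetases, 8 are subunits of the multi-synthetase complex, a cytosolic assembly held together by scaffold proteins. Among them, Eprs, Iars, Lars and Qars rose and Kars fell, while Dars, Mars and Rars were not called. Of the 12 outside the complex, 4 rose and 3 fell. The medians were 0.237 within the complex and 0.319 outside it. The scaffold genes split, with Aimp1 at 0.54 ± 0.11 (adjusted p = 0.000300) and Aimp2 at −0.51 ± 0.14 (adjusted p = 0.00305), both called, and Eef1e1 not called.

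The mitochondrial synthetases, which charge the tRNAs of the organelle's own genome and are encoded by separate nuclear genes, had a median of −0.068. Of 17, 3 rose and 7 fell. Fars2, for phenylalanine, rose by 0.65 ± 0.10 in 10 of 10 lines (adjusted p = 6.52e-06) and Ears2, for glutamate, by 0.44 ± 0.14 (adjusted p = 0.0108). Cars2, for cysteine, fell by 0.79 ± 0.11 (adjusted p = 3.62e-06) in 10 of 10 lines.

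The synthesis enzymes included the widest changes after Slc6a9. Cth, which releases cysteine from cystathionine (mm9, chr3:157557212-157588041, minus strand), was at 1.06 to 3.88 FPKM in growth (median 2.60) and at 1.06 to 71.5 FPKM after differentiation (median 12.9). It rose in 9 of 10 lines, by 2.15 ± 0.52 (adjusted p = 0.00144). The change was 36.9-fold in H3mm7 and 14.4- to 15.5-fold in H3.2, H3.3 and H3mm11, while in H3mm12 the level was 0.427 times that in growth. Pycr1 (chr11:120497026-120505083, minus strand) rose in 10 of 10 lines, from 1.27–1.69 FPKM (median 1.52) to 1.55–19.6 FPKM (median 3.78), by 1.21 ± 0.27 (adjusted p = 0.000639). Aldh18a1, which makes the precursor that Pycr1 reduces, rose by 0.63 ± 0.26 (adjusted p = 0.0434).

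Mthfd2 and Aldh1l2 are mitochondrial enzymes of folate metabolism that oxidise one-carbon units. Mthfd2 lay at 60.4 to 86.3 FPKM in growth (median 67.4) and 59.9 to 236 FPKM after differentiation (median 163), a rise of 0.92 ± 0.22 (adjusted p = 0.00137). H3.1, H3t and H3mm12 lay at 59.9 to 87.1 FPKM after differentiation, close to the growth range. Aldh1l2 (chr10:82950195-82996885, minus strand) went from 6.02–13.9 FPKM (median 8.35) to 3.32–179 FPKM (median 22.5). Its rise of 1.68 ± 0.52 (adjusted p = 0.00879) was seen in 9 of 10 lines, but its size ranged from 0.21 on the log2 scale in H3.1 to 3.99 in H3.3, and H3mm12 went the other way (−1.29). Without H3.3, H3mm7 and H3mm11, Aldh1l2 was at 0.79 and not called (adjusted p = 0.112).

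The serine enzymes themselves were not called. Phgdh was at 0.09 ± 0.46 (adjusted p = 0.881), Psat1 at 0.29 ± 0.24 (adjusted p = 0.310), Psph at 0.64 ± 0.40 (adjusted p = 0.178), and Shmt2, which passes the carbon of serine to folate in mitochondria, at 0.05 ± 0.32 (adjusted p = 0.902). Their lines moved in opposite directions. Phgdh was higher after differentiation in H3.2, H3.3, H3mm7 and H3mm11, with 227 to 431 FPKM against 150.5 to 175 FPKM in growth, and lower in the other 6 lines. In WT, Phgdh was at 24.6 FPKM in growth and 18.8 FPKM after differentiation, against at least 145 and 69.6 FPKM in the 9 GFP-H3 lines. Without WT its difference was 0.14 (adjusted p = 0.668).

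Other genes of these pathways, from lists of the rest of these pathways, are set beside them. Of 8 tested one-carbon genes outside the 38, 1 rose and 6 fell, with a median of −1.09. Tyms, thymidylate synthase, fell by 2.37 ± 0.14 (adjusted p = 5.36e-12). Shmt1 and Mthfd1, the cytosolic relatives of Shmt2 and Mthfd2, fell by 1.67 ± 0.24 and 1.16 ± 0.14. Of 12 tested genes of other amino acid and glutathione synthesis, 3 rose and 4 fell: Gpt2, an alanine aminotransferase, rose by 2.41 ± 0.16 (adjusted p = 5.06e-11) and Glul, glutamine synthetase, by 1.24 ± 0.30 (adjusted p = 0.00133), and Gclm, a subunit of the first enzyme of glutathione synthesis, fell by 2.05 ± 0.11 (adjusted p = 2.87e-12).

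Among the transporters, Slc6a9, the glycine transporter GLYT1 (mm9, chr4:117507111-117547803, plus strand), had the largest difference of the 37 genes. It was at 2.75 to 6.51 FPKM in growth (median 4.88) and 18.4 to 103 FPKM after differentiation (median 46.9). Every differentiated library lay above every growth library, as for 8.85% of all tested genes, and Slc6a9 was the only one of the 37 for which this held. It rose by 3.13 ± 0.30 (adjusted p = 1.16e-08), from 4.34-fold in H3.1 to 26.3-fold in H3.3. Its exons overlap in position with those of B4galt2 and Ccdc24 on the opposite strand, which were at −0.30 (adjusted p = 0.0614) and −0.93 (adjusted p = 2.45e-06).

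Slc3a2 and Slc7a5 encode the heavy and light chain of the large neutral amino acid exchanger, which brings in leucine and other essential amino acids. Slc3a2 was at 71.8 to 93.2 FPKM in growth (median 81.1) and 71.3 to 580.4 FPKM after differentiation (median 152), and Slc7a5 went from 79.4–96.7 FPKM (median 84.6) to 83.0–335 FPKM (median 173). Slc3a2 rose by 1.16 ± 0.31 (adjusted p = 0.00313) and Slc7a5 by 0.93 ± 0.23 (adjusted p = 0.00166), each in 9 of 10 lines. In H3t and H3mm12 both chains stayed within 0.08 of their growth level on the log2 scale, and so did Slc7a5 in H3.1.

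Slc38a2, a sodium-coupled carrier of glutamine and other small neutral amino acids, followed a different pattern. It rose in 10 of 10 lines, from 79.7–139 FPKM (median 103) to 118–214 FPKM (median 170), by 0.63 ± 0.12 (adjusted p = 0.000182), and its levels spread over 1.81-fold after differentiation against 1.74-fold in growth. H3mm7, the highest line for most of the group, was the second lowest for Slc38a2 at 124 FPKM. Slc7a11 (0.64 ± 0.36, adjusted p = 0.137), Slc1a4 (0.38 ± 0.29, adjusted p = 0.260), Slc7a1 (0.29 ± 0.26, adjusted p = 0.356) and Slc1a5 (−0.08 ± 0.27, adjusted p = 0.812) were not called. Without WT, Slc7a11 was at 0.72 (adjusted p = 0.0845 in limma). Of 16 other amino acid transporters 9 were tested, of which 3 rose and 3 fell, with Slc43a2 at 1.41 ± 0.20 (adjusted p = 3.22e-06) and Slc7a6 at −0.74 ± 0.14 (adjusted p = 0.000139) the largest each way.

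**Figure D2:**
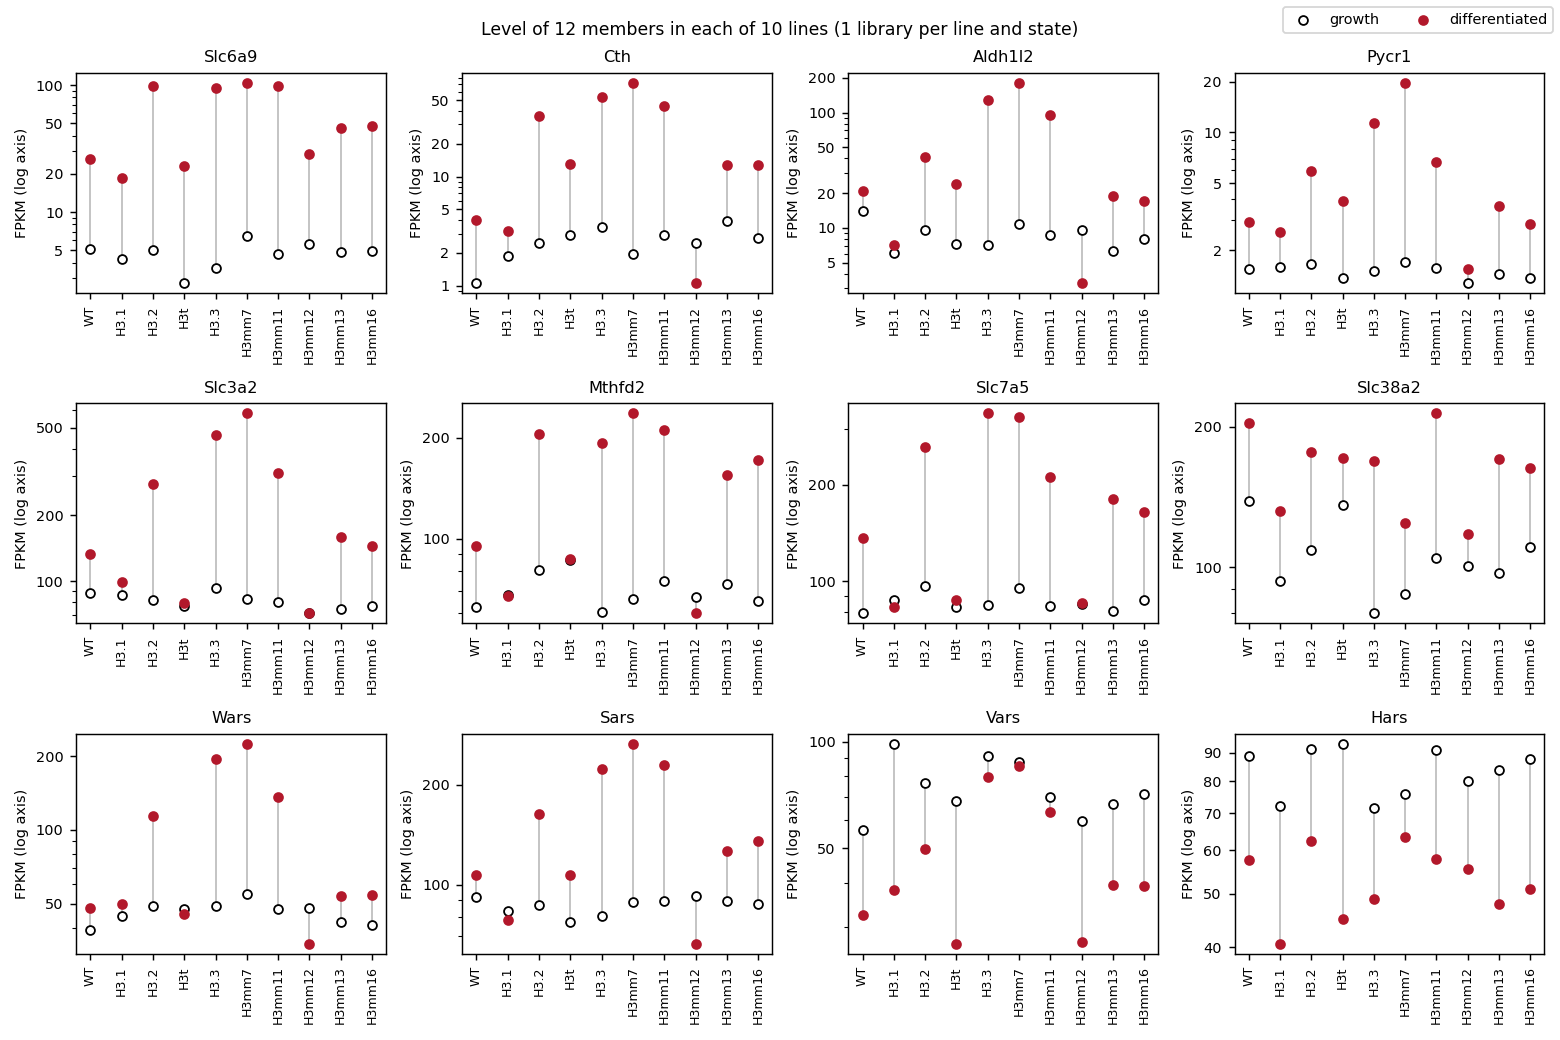
FPKM (log axis) of 12 members in each of the 10 lines (horizontal axis), with 1 library per line in growth (open circles) and 1 after differentiation (filled circles). Growth levels lie close together, while after differentiation H3.2, H3.3, H3mm7 and H3mm11 lie highest for Cth, Aldh1l2, Slc3a2 and Wars, and Hars is lower in every line.

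The spread between lines grew with differentiation. The SD over the 10 lines on the log2 scale was larger in the differentiated state than in growth for 37 of the 37 genes, and for 77.1% of all tested genes. The median SD was 0.183 in growth and 0.663 after differentiation over the 37 genes, against 0.241 and 0.337 over all tested genes, and the count was 37 again over the 9 GFP-H3 lines, beside 79.1% of all genes. The mitochondrial synthetases had median SDs of 0.222 and 0.270. The highest differentiated library exceeded the lowest 67.7-fold for Cth and 54.0-fold for Aldh1l2, against 3.66-fold and 2.32-fold in growth, and at the narrow end 1.56-fold for Hars and 1.59-fold for Qars.

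**Figure D3:**
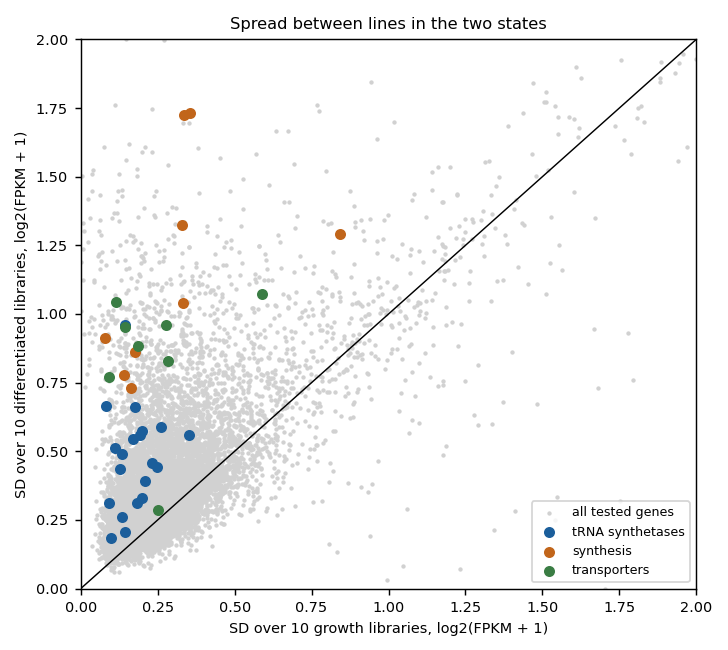
SD over the 10 lines on the log2(FPKM + 1) scale in growth (horizontal axis) and after differentiation (vertical axis) for all 10954 tested genes (grey) and the 37 tested members by role (colours), with the line of equality. All members lie above the line, and 105 genes lie beyond 2 on an axis and are not drawn.

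After differentiation the lines kept a similar order across the genes. H3mm7 was the highest of the 10 libraries for 25 of 37 genes, as it was for 18.9% of all tested genes, and H3mm12 was the lowest for 21 of 37, as for 8.04% of all tested genes. By the median rank over the 37 genes, from 1 for the highest, H3mm7 stood at 1, H3.3 at 2, H3mm11 at 3, H3.2 at 4, H3mm13 and H3mm16 at 6, WT at 7, H3t at 8, H3.1 at 9 and H3mm12 at 10. In growth the median ranks lay between 4 and 8.

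The study set H3.3, H3mm7 and H3mm11 apart from the other lines by a component analysis of these same libraries, so their values are a description without a test. By the paper's gene set analysis, positive scores on the component that separates these 3 lines mark higher expression of ER-stress-related genes. After differentiation the lowest of these 3 lines lay above the highest of the other 7 for 16 of 37 genes, against 8.89% of all tested genes, and in growth for 0 of 37, against 1.86%. The reverse, with all 3 below the other 7, occurred for 0 of 37 genes, against 7.88% of all tested genes. The 16 genes were Aars, Eprs, Gars, Lars, Sars, Vars, Wars, Yars, Phgdh, Shmt2, Aldh1l2, Pycr1, Cth, Slc3a2, Slc1a4 and Slc1a5. Shmt2 was at 240 to 435 FPKM in the 3 lines and 48.2 to 184 FPKM in the other 7, and Aldh1l2 at 95.6 to 179 against 3.32 to 41.3 FPKM. The pattern had exceptions, since Dars, for aspartate, was at 61.4 to 69.3 FPKM in the 3 lines and 67.2 to 126 FPKM in the other 7, highest in H3mm12. With those 3 lines left out, 8 of 37 genes were called higher (Qars, Mthfd2, Pycr1, Cth, Slc7a5, Slc3a2, Slc38a2 and Slc6a9) and 4 lower. Their median difference was 0.168. Of all 10954 tested genes in that fit, 3168 were called higher and 2908 lower, with a median of 0.023. The list was thus called less often than the background in both directions.

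**Figure D4:**
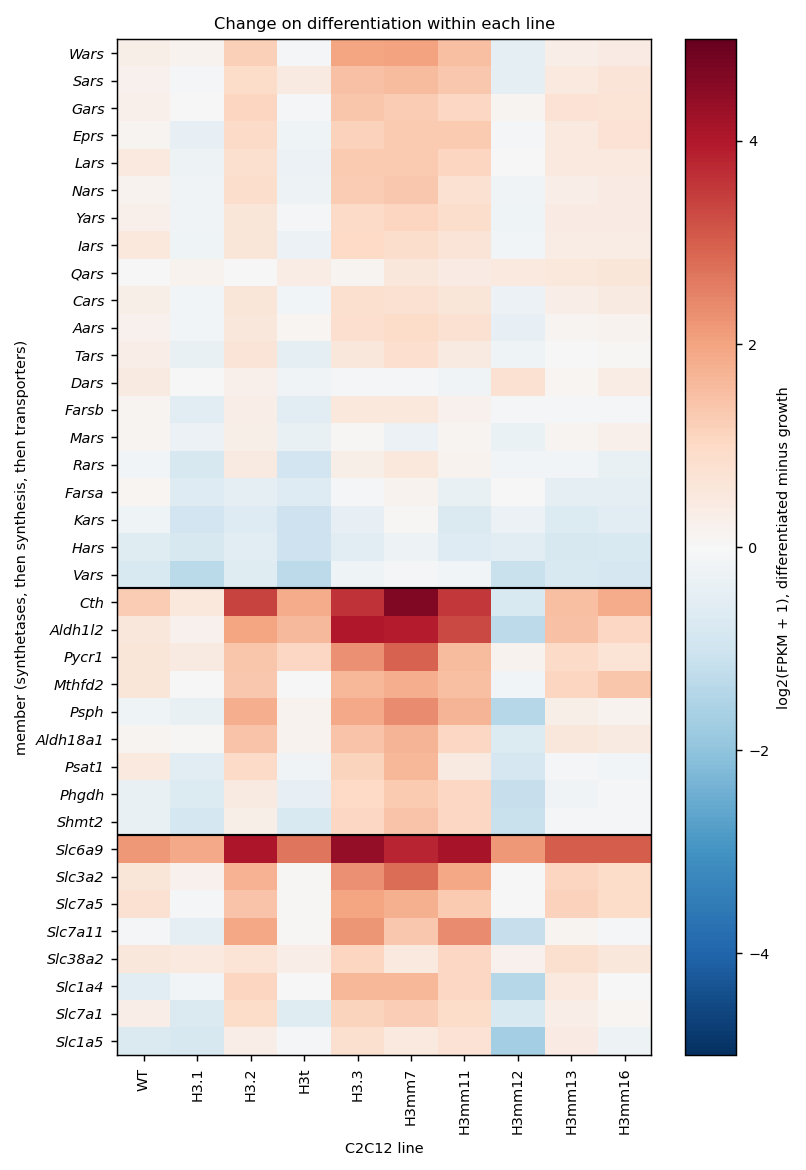
Change of each of the 37 members within each line, as log2(FPKM + 1) in differentiated minus growth cells (colour, red for higher and blue for lower), with 1 pair of libraries per cell and rows ordered by mean change within each role. The H3.2, H3.3, H3mm7 and H3mm11 columns are red in most rows, with a largest change of 4.63 for Cth in H3mm7, and the H3mm12 column is blue or pale in most rows outside Slc6a9.

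Within lines, the median change over the 37 genes was 1.29 in H3mm7, 1.12 in H3.3, 1.02 in H3mm11 and 0.807 in H3.2, with 32 or 33 of the genes higher in each. It was 0.381 in H3mm16, 0.351 in H3mm13 and 0.224 in WT, and −0.101 in H3t, −0.168 in H3.1 and −0.294 in H3mm12, where 7 of 37 genes were higher. The median of all tested genes stayed between −0.012 and 0.062 in every line.

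The ATF4 pathway list, with ATF4 itself, kinases of eIF2, and partners and known targets of ATF4 outside the 38 genes, rose on the whole. Of 17 genes 13 rose and 1 fell, with a median of 1.04. Atf4 rose by 1.04 ± 0.20 in 10 of 10 lines (adjusted p = 0.000168), Ddit3 by 2.18 ± 0.51 (adjusted p = 0.000997), Trib3 by 3.03 ± 0.51 (adjusted p = 3.56e-05) and Asns, asparagine synthetase, by 0.81 ± 0.27 (adjusted p = 0.0125). Eif2ak4, the kinase that senses uncharged tRNA, fell by 0.40 ± 0.12 (adjusted p = 0.00852). The median change of this list by line was 2.04 in H3.3, 1.88 in H3mm7, 1.71 in H3mm11 and 1.59 in H3.2, and was lowest in H3t (0.458), H3.1 (0.347) and H3mm12 (0.268). ATF4 is regulated mainly in translation, which these libraries do not measure.

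**Figure D5:**
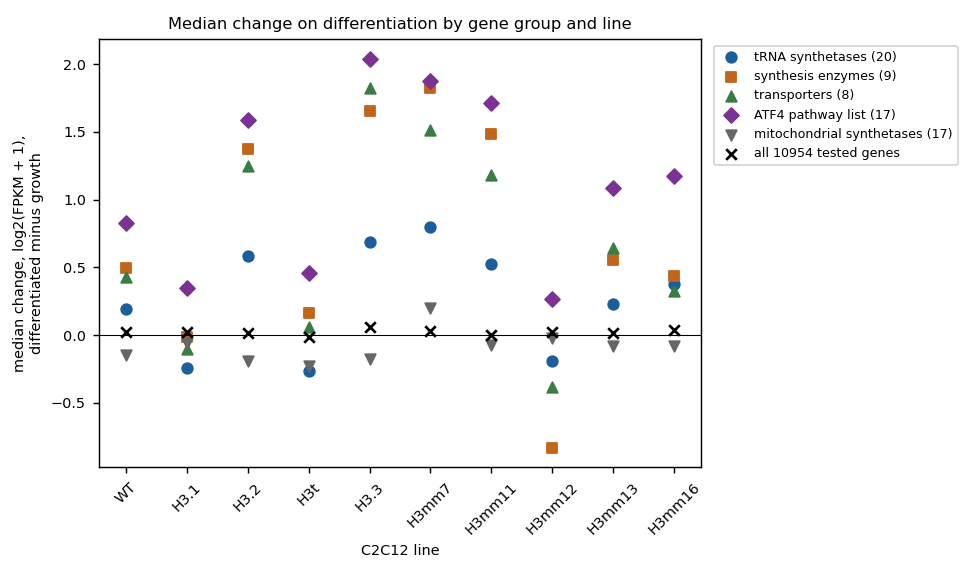
Median change on differentiation, log2(FPKM + 1), for 5 gene groups and for all 10954 tested genes (symbols) in each of the 10 lines (horizontal axis). The synthetase, synthesis, transporter and ATF4 groups are highest in H3.2, H3.3, H3mm7 and H3mm11, while the mitochondrial synthetases stay between −0.23 and 0.198 and all tested genes near 0.

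Markers of the cells' state also differed between the differentiated libraries, and their part in these levels was not tested. The summed FPKM of the 6 cell cycle genes lay between 555 and 748 in growth and between 5.54 (H3mm11) and 102 (H3.1) after differentiation. Between these lay WT at 69.0, H3t at 50.8, H3mm7 at 33.5, H3mm12 at 23.3 and H3.2 at 21.45. H3.3 was at 12.47, H3mm16 at 12.15 and H3mm13 at 6.82. The summed FPKM of the 8 muscle genes after differentiation was 3391 to 4819 in H3.3, H3mm7 and H3mm11, 3846 in H3.1, 4460 in H3t and 9113 in H3.2, and 11910 to 17410 in H3mm16, H3mm13, WT and H3mm12. In bulk samples, fewer cells in a state and less RNA per cell cannot be told apart.

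The H3 clade of the transgene was tested directly, with the 6 H3.3-type lines set against the 3 of the other clade in limma. No gene of the 37 was called in the differentiated state, in growth or in the difference of the 2 changes (the interaction), with lowest adjusted p-values of 0.182, 0.725 and 0.632, and 2, 0 and 0 genes had an unadjusted p below 0.05. Over all tested genes 2.46% were called in the differentiated state, 0.246% in growth and 0.0% for the interaction. In the same order, 2206, 1029 and 1002 of the 10954 had an unadjusted p below 0.05, each a larger share than in the list. The fit gave each gene a single spread, shared by both clades and both states. The median SD of the 37 genes over the 10 lines was 0.183 in growth and 0.663 after differentiation. The growth contrast was thus judged against a spread wider than its own, and the differentiated contrast against a narrower one. The absence of calls in growth cannot decide whether the clades differed there. In the differentiated state the H3.3-type mean was higher for 33 of 37 genes and for 5569 of all 10954 tested genes. The median differences were 0.365 and 0.006. The H3.3-type lines did not share this evenly, since H3mm7 was the highest of the 10 libraries for 25 of the 37 genes and H3mm12 the lowest for 21. Yars, for tyrosine, had the lowest adjusted p, with 0.57 ± 0.24 (adjusted p = 0.182, unadjusted p = 0.0264 in limma). The standard errors of Aldh1l2 (0.93 ± 0.85) and Cth (0.65 ± 0.83) were about as large as the differences. After differentiation Aldh1l2 was at 95.6 to 179 FPKM in H3.3, H3mm7 and H3mm11, and at 3.32 to 19.1 FPKM in H3mm12, H3mm13 and H3mm16. Cth was at 44.2 to 71.5 and 1.06 to 12.7 FPKM in the same lines, in that order. In the other clade H3.2 was the highest for both genes, at 41.3 FPKM for Aldh1l2 and 35.5 FPKM for Cth. Without H3.2, 1 of the 37 genes was called, Slc6a9, at 1.57 ± 0.39 (adjusted p = 0.0252 in limma). In that fit 287 of all 10954 tested genes were called higher and 486 lower. Both directions together made a larger share than in the list, and the higher calls alone about the same share. The number of calls over all genes in the differentiated state went from 269 to between 8 and 773 when 1 line was left out, so that count depended on single lines.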

How the data were processed

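The deposited expression table holds FPKM for 20 mRNA-Seq libraries made from oligo-dT primed RNA. Per the labels and methods, the authors aligned reads with TopHat 2.0.8 (build mm9) and took FPKM from cuffdiff of Cufflinks 2.0.1 at its defaults. FPKM are relative to all mapped reads of a library, so a gene's value also depends on the others. Values were set to log2(FPKM + 1), genes with a mean of at least 1 FPKM were kept, and limma 3.58.1 (trend and robust settings, R 4.3.3) compared the 10 growth with the 10 differentiated libraries, and the 2 H3 clades in a fit of 18 libraries without WT. Adjusted p-values are Benjamini-Hochberg over all 10954 tested genes. The fits were tested on simulated data. Alternatives were pseudocounts of 0.1 and 5, no filter or a mean of 5 FPKM, quantile and median scaling, plain limma, a minimum difference, each line left out, the line as block and an exact sign-flip permutation test over lines. The 2 libraries of a line pair by label, and their deviations from the state means correlated at 0.273 to 0.877 in the 10 lines. Named genes were the 4 called members with the largest difference per role, members called against their role's direction (up to 2), the 2 synthetases with the smallest difference, the 2 largest calls each way of each comparison list, and Atf4, Ddit3 and Asns. Some genes of these lists are not reported here. Other genes were named after their values were seen. The members and lists were chosen with earlier results of these data known. Positions are from GENCODE M1 (mm9). ChIP-Seq and 3′-seq files were not used here.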

Additional observations from a re-analysis of the deposited data

Results flagged for a closer look

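In 74 checks of a single library against the other 9 of its state, 3 values stood far from the rest, where chance gives about 1 in 20. In growth, WT had 24.6 FPKM of Phgdh where the 9 GFP-H3 lines had 145 to 175 FPKM, and the gap made up 0.902 of the range on the log2 scale. Slc7a11 was at 6.53 FPKM in WT in growth, against at most 2.56 FPKM in the other lines (0.535 of the range). Dars was at 104 FPKM in H3t in growth (0.477 of the range). Phgdh stayed lowest in WT after differentiation, whereas Slc7a11 and Dars lay inside the range of the other lines there. No gene met the conditions for a change that differs between the H3 clades.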

How the results depend on the processing

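The counts of 17 higher and 4 lower genes were 13 to 19 and 4 under the other pseudocounts, filters and scalings, plain limma and the sign-flip test, and 20 and 4 with the line as replicate block, which changed no other call than those of Aars, Cars and Nars. With the block, 4058 of all 10954 tested genes were called higher and 3644 lower. Requiring a log2 difference of at least 1 left 5 and 0 genes of the list, beside 972 and 921 of all tested genes. Leaving out 1 line gave 11 to 20 higher and 3 to 4 lower. Leaving out H3.3, H3mm7 and H3mm11, chosen after the values were seen, gave 8 higher, beside 3168 of all 10954 tested genes. In the clade contrast of differentiated cells, leaving out 1 line gave 0 to 1 higher. Mars (main −0.03) turned to 0.0011 without H3.1, 0.008 without H3mm12 and 0.0116 without H3t, and Farsb (main 0.05) to −0.0039 without H3.3, −0.0042 without H3mm7 and −0.113 without the 3 lines; neither was called in any of these fits. Wars was not called without the filter (adjusted p = 0.0536 in limma). The cause of these shifts was not tested. The interaction had 0 members called with the replicate block too. Depth per library is unknown, so the counting error of low values such as Pycr1, Cth and Slc7a11 in growth is not known.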
